A study of Mus musculus with 12 samples.

Results

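Keratins are the intermediate filament proteins of epithelial cells, and 51 gene symbols of the 32416 in the expression table are keratins, chosen as every symbol that starts with Krt and a digit. They comprise 26 type I and 25 type II genes, and 41 of them reached 1 TPM (a level of transcript abundance scaled for transcript length and library total) in at least 1 of 12 libraries. Each filament pairs a type I with a type II keratin, and each epithelial layer has its own pairs: Krt14 and Krt5 in the basal layer of the epidermis, Krt10 with Krt1 or related type II keratins above it, Krt8 and Krt18 in single-layered epithelia, and further sets in the inner root sheath and the shaft of the hair. Melanoma cells are not keratinocytes, so keratin transcripts are used by pathologists and in bulk RNA data as a trace of epithelium in a sample.

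The study measured polyA RNA in tumours that B16 cells, a mouse melanoma line, formed under the skin of C57BL/6 mice. The tumours over-expressed Aoah, the gene of acyloxyacyl hydrolase, an enzyme that removes acyl chains from lipopolysaccharide, or carried the empty Vector. In the B16mhgp100 model 4 Aoah and 4 Vector tumours came from mice given anti-PD1 from day 10, and in the B16F10 model 2 Aoah and 2 Vector tumours came from mice given anti-PD1 and anti-CTLA4 from day 6. Each dose was 200 µg of an antibody, 4 doses were given at 2 per week, and every tumour was taken 1 day after the last dose. All mice of both arms therefore received checkpoint antibodies, and model, antibodies and first day cannot be told apart. The sources used here do not give the promoter that drives Aoah, whether a line was 1 clone, or whether each tumour of a group grew in its own mouse, so a p-value reflects only how these tumours vary. How the pieces were cut from the skin is not given in the sources used here.

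Aoah itself had 17.9, 22.5, 14.0 and 3.91 TPM in B16mhgp100 Aoah libraries 1 to 4, against 7.58, 0.89, 2.43 and 1.57 TPM in Vector libraries 1 to 4. It had 21.8 and 23.7 TPM in B16F10 Aoah libraries, against 1.49 and 0.75 TPM in Vector libraries. The value of the library labelled Aoah 4 thus lay inside the range of the Vector libraries. That library also stood apart in general: its median correlation with the others was 0.84, against 0.929 to 0.971 for the other 11, its share of TPM in ribosomal protein genes was 22.0%, against 8.8% to 12.5%, and its deviations fell with transcript length (Spearman rho across 11043 genes -0.393, against -0.311 to 0.282). The number of genes with at least 1 TPM ran from 13775 to 14791 per library, and the melanocyte genes were high throughout, with Pmel at 1774 TPM in the library labelled Aoah 4 and 6952 to 15881 TPM in the others. TPM keeps no read depth, so no counting interval is given. In bulk tissue, fewer cells of a type and less RNA per cell cannot be told apart.

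Keratins were high in 3 libraries, 1 labelled Aoah and 2 Vector. Of the 41 keratins that reached 1 TPM, 13 were highest in the library labelled Aoah 4 and 21 in B16mhgp100 Vector 1. Over all 18591 genes that reached 1 TPM, the share highest in these libraries was 15.9% and 9.28%. A further 4 keratins were highest in B16F10 Vector 2 (5.95% of all genes), 2 in B16mhgp100 Aoah 1 (5.19%) and 1 in B16F10 Vector 1 (11.1%). All keratins together summed to 5372 TPM in the library labelled Aoah 4, 907 TPM in B16mhgp100 Vector 1 and 391 TPM in B16F10 Vector 2, and to between 18.0 and 51.4 TPM in the other libraries. The library labelled Aoah 4 held epidermal keratins, and the 2 Vector libraries held hair keratins. Simple epithelial keratins followed neither, and Krt80 was present in every library. The family as a whole therefore did not mark 1 tissue.

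**Figure D1:**
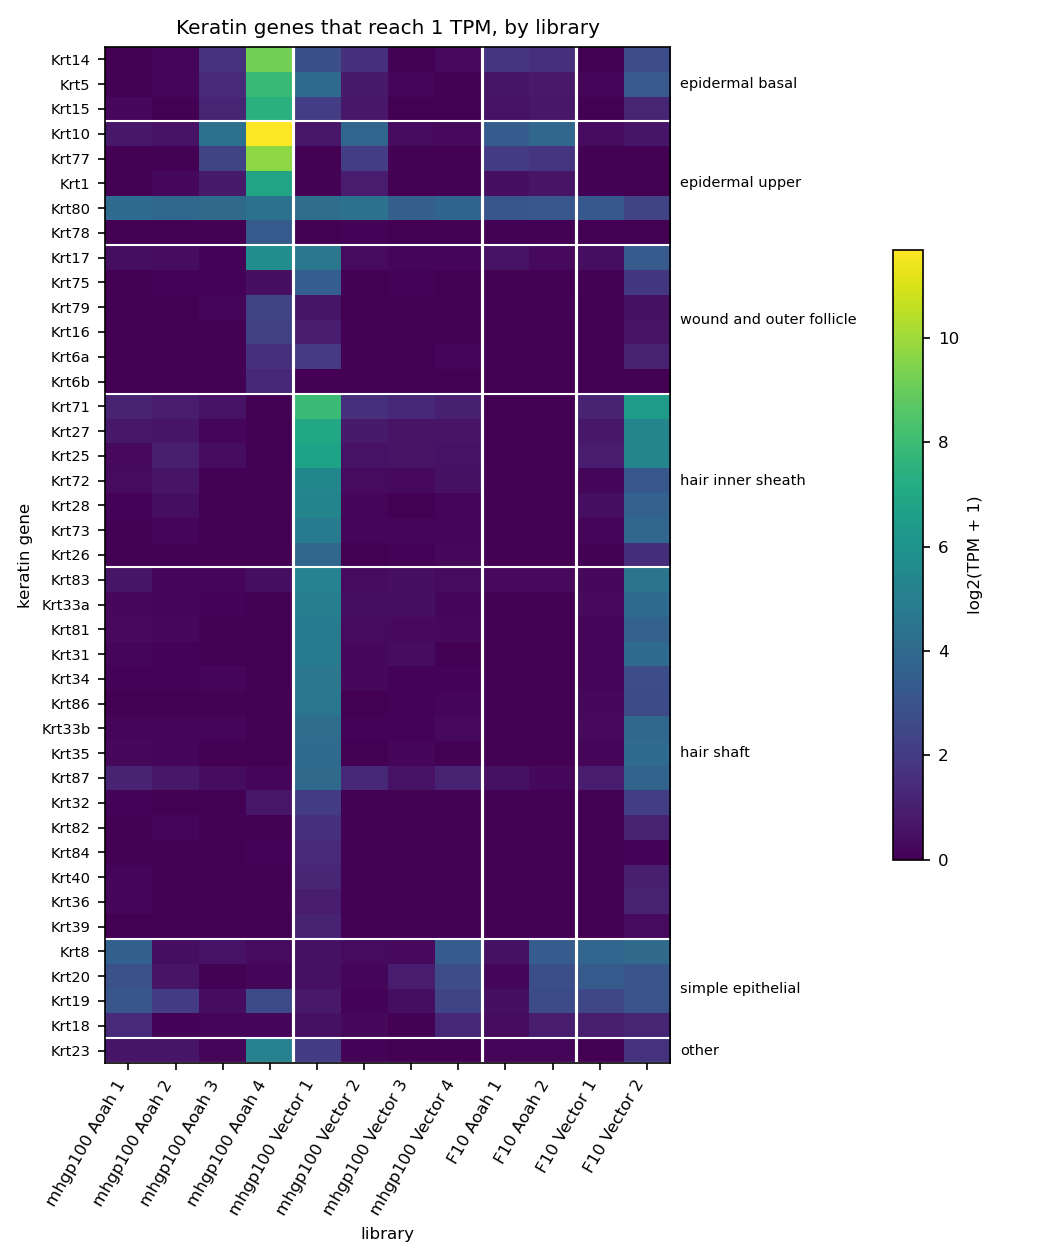
Levels of the 41 keratins that reached 1 TPM (rows, grouped by class) in the 12 libraries (columns, white lines between groups; F10 and mhgp100 are the models), coloured by log2(TPM + 1). The epidermal block is bright in the library labelled Aoah 4, the hair blocks are bright in mhgp100 Vector 1 and F10 Vector 2, and the Krt80 row is above 1 TPM in all columns.

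The library labelled Aoah 4 held keratins of the upper epidermis, and where they came from was not tested. Krt10, the type I keratin of the layers above the basal one, had 0.68, 0.48, 19.0 and 3281 TPM in B16mhgp100 Aoah libraries 1 to 4, against 0.62, 13.2, 0.27 and 0.23 TPM in Vector libraries 1 to 4. Krt10 in B16F10 had 9.49 and 13.4 TPM in Aoah libraries 1 and 2, against 0.28 and 0.58 TPM in Vector libraries 1 and 2. Its level in the library labelled Aoah 4 was 173-fold that of the next library, and the remaining values formed a low set and a set between 9 and 19 TPM that mixed Aoah and Vector. Krt77, a type II keratin known from the upper layers of mouse epidermis, had 0, 0, 4.21 and 835 TPM in B16mhgp100 Aoah libraries 1 to 4, against 0, 3.32, 0.04 and 0 TPM in Vector libraries 1 to 4. Krt77 in B16F10 had 3.25 and 2.39 TPM in Aoah libraries 1 and 2, against 0.04 and 0 TPM in Vector libraries 1 and 2. The same 5 libraries that held Krt10 above 9 TPM were the only ones with Krt77 above 2 TPM. Krt1, the classical type II partner of Krt10, had 0.03, 0.18, 0.81 and 111 TPM in B16mhgp100 Aoah libraries 1 to 4, against 0.05, 0.83, 0 and 0.05 TPM in Vector libraries 1 to 4. Krt1 in B16F10 had 0.41 and 0.52 TPM in Aoah libraries 1 and 2, against 0.04 and 0 TPM in Vector libraries 1 and 2. Krt1 reached 1 TPM in the library labelled Aoah 4 alone. Krt78, a further type II keratin of upper layers, had 8.78 TPM there and at most 0.07 TPM in the other 11 libraries. Krt2, which marks the outermost living layers of some mouse skin sites, stayed at or under 0.45 TPM in all libraries.

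Basal layer keratins were highest in the same library but less exclusive to it. Krt14, the type I keratin of the basal layer, had 0, 0.13, 2.27 and 600.1 TPM in B16mhgp100 Aoah libraries 1 to 4, against 6.23, 2.02, 0 and 0.24 TPM in Vector libraries 1 to 4. Krt14 in B16F10 had 2.61 and 2.01 TPM in Aoah libraries 1 and 2, against 0 and 5.76 TPM in Vector libraries 1 and 2. B16mhgp100 Vector 1 and B16F10 Vector 2 came next. Krt5, the type II partner of Krt14, had 0.05, 0.15, 1.63 and 239 TPM in B16mhgp100 Aoah libraries 1 to 4, against 16.1, 0.78, 0.10 and 0.05 TPM in Vector libraries 1 to 4. Krt5 in B16F10 had 0.60 and 0.73 TPM in Aoah libraries 1 and 2, against 0.15 and 8.68 TPM in Vector libraries 1 and 2. The order of the top 3 libraries was the same for Krt5 as for Krt14. Krt15, a type I keratin of basal cells and of the follicle bulge, had 0.20, 0, 1.33 and 169 TPM in B16mhgp100 Aoah libraries 1 to 4, against 3.37, 0.67, 0 and 0 TPM in Vector libraries 1 to 4. Krt15 in B16F10 had 0.49 and 0.71 TPM in Aoah libraries 1 and 2, against 0 and 1.29 TPM in Vector libraries 1 and 2. Summed over Krt14, Krt5 and Krt15, the basal class came to 1008 TPM in the library labelled Aoah 4, 39.3-fold the highest other library. The upper epidermal class came to 4256 TPM there, 108-fold the highest other library. These folds moved with the processing, to 71.6 and 180.0 with median-of-ratios scaling and to 21.0 and 41.3 without the highest member of each class. Type I exceeded type II keratins in both classes of that library, by 3.22-fold in the basal class and 3.36-fold in the upper class.

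Krt80, listed here with the upper epidermal class, differed from its other members. Krt80, a type II keratin found in many epithelia, had 15.97, 14.5, 15.4 and 19.6 TPM in B16mhgp100 Aoah libraries 1 to 4, against 16.9, 19.4, 10.6 and 12.5 TPM in Vector libraries 1 to 4. Krt80 in B16F10 had 7.80 and 7.91 TPM in Aoah libraries 1 and 2, against 8.34 and 4.22 TPM in Vector libraries 1 and 2. It was the only keratin with at least 1 TPM in all 12 libraries. In B16mhgp100 it averaged 16.4 ± 2.23 TPM in Aoah and 14.8 ± 4.01 TPM in Vector (SD, n = 4 each), and in B16F10 it averaged 7.86 ± 0.0778 TPM in Aoah and 6.28 ± 2.91 TPM in Vector (SD, n = 2 each). The level in the library labelled Aoah 4 was close to that of B16mhgp100 Vector 2. Without Krt80, basal and upper epidermal keratins summed to 5245 TPM in the library labelled Aoah 4 and to between 0.44 and 29.2 TPM in the other 11.

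Gene by gene, 8 of the 41 keratins stood at least 4-fold above the highest other library in the library labelled Aoah 4, on the TPM + 1 scale. Over all 18591 genes the share was 1.61%, or 299 genes. The 8 were Krt1, Krt5, Krt10, Krt14, Krt15, Krt77, Krt78 and Krt23. Krt23 had 0.58, 0.59, 0.15 and 35.0 TPM in B16mhgp100 Aoah libraries 1 to 4, against 3.13, 0.08, 0 and 0 TPM in Vector libraries 1 to 4. Krt23 in B16F10 had 0.14 and 0.14 TPM in Aoah libraries 1 and 2, against 0 and 2.29 TPM in Vector libraries 1 and 2. Krt23 was thus next highest in B16mhgp100 Vector 1 and B16F10 Vector 2, the libraries rich in hair keratins, as Krt14 and Krt5 were and Krt10 was not. This is a description of 1 library and carries no test.

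Other keratinocyte genes stood high in the same library, at different counts per list. Of 23 cornified envelope genes that reached 1 TPM, 10 passed the same 4-fold mark. Their summed level was 7155 TPM in the library labelled Aoah 4, against 31.6 to 226 TPM in the others. Krtdap, a keratinocyte differentiation gene, had 1791 TPM there and at most 14.8 TPM elsewhere. Lor, which encodes loricrin, the main protein of the cornified envelope, had 1334 TPM there and at most 6.70 TPM elsewhere. Sbsn, which encodes the secreted keratinocyte protein suprabasin, had 1355 TPM there, against 5.04 to 21.9 TPM, and the galectin gene Lgals7 had 1543 TPM there, against 8.22 to 118 TPM. Of 15 adhesion genes 3 passed the mark. Perp, a desmosome gene, was among them, with 198 TPM against 0.29 to 23.5 TPM in the others. Jup, which encodes plakoglobin, fell short of the mark, with 194 TPM against 4.98 to 51.3 TPM. Dst and Itga6, adhesion genes that other cell types also express, were lower in that library than in most others, Dst at 14.2 TPM against 49.7 to 99.2 TPM and Itga6 at 16.4 TPM against 9.53 to 34.9 TPM. Of 11 regulators of keratinocyte identity 3 passed. Sfn had 153 TPM against 2.78 to 29.3 TPM, whereas Tfap2a, which melanocytes also express, had 16.5 TPM against 45.0 to 78.3 TPM.

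The 10 genes furthest above the highest other library in the library labelled Aoah 4, other than keratins, were of 2 kinds. Calm4, Lor, Lce1m, Fam25c, Lce1a2, Krtdap, Lce1b and Lce1a1 had between 224 and 2085 TPM there. Of these, Lor, Krtdap and the Lce1 genes, which code for late cornified envelope proteins, are known from epidermis. Rny3, a Y RNA, had 1481 TPM there and Snord13, a small nucleolar RNA, had 181 TPM there. Both were listed at 0 in the other 11 libraries, and neither RNA is normally polyadenylated. Skeletal muscle genes stood high there as well, 9 of 14 past the 4-fold mark. They summed to 8262 TPM, against 1070 TPM in B16mhgp100 Vector 1, 334 TPM in B16F10 Vector 2 and 23.1 to 247 TPM in the rest. The part of library quality or of the other tissue in the keratin levels was not tested.

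Hair keratins marked B16mhgp100 Vector 1 and B16F10 Vector 2 in place of the library labelled Aoah 4. The 8 inner root sheath keratins, which form the sheath that moulds the growing hair, summed to 595 TPM in B16mhgp100 Vector 1 and 195 TPM in B16F10 Vector 2. They summed to at most 3.85 TPM elsewhere, and were listed at 0 in the library labelled Aoah 4 and in both B16F10 Aoah libraries. Krt71, a type II keratin of the inner root sheath, had 1.15, 0.86, 0.47 and 0 TPM in B16mhgp100 Aoah libraries 1 to 4, against 246, 2.01, 1.54 and 1.02 TPM in Vector libraries 1 to 4. Krt71 in B16F10 had 0 and 0 TPM in Aoah libraries 1 and 2, against 1.15 and 82.8 TPM in Vector libraries 1 and 2. B16mhgp100 Vector 1 and B16F10 Vector 2 were the only libraries above 2.01 TPM. The type I inner sheath keratins Krt27, Krt25, Krt28 and Krt26 repeated this order, as the values below show in replicate order. Krt27 in B16mhgp100 had 0.66, 0.60, 0.16 and 0 TPM with Aoah, against 123, 0.82, 0.53 and 0.55 TPM with Vector. Krt27 in B16F10 had 0 and 0 TPM with Aoah, against 0.66 and 39.1 TPM with Vector. Krt25 lay close to Krt27 in both high libraries. Krt25 in B16mhgp100 had 0.22, 0.96, 0.29 and 0 TPM with Aoah, against 108, 0.50, 0.51 and 0.48 TPM with Vector. Krt25 in B16F10 had 0 and 0 TPM with Aoah, against 0.89 and 38.4 TPM with Vector. Krt28 and Krt26 were lower. Krt28 in B16mhgp100 had 0.07, 0.35, 0 and 0 TPM with Aoah, against 37.6, 0.16, 0 and 0.15 TPM with Vector. Krt28 in B16F10 had 0 and 0 TPM with Aoah, against 0.35 and 11.6 TPM with Vector. No library other than the 2 high ones reached 1 TPM in Krt28. Krt26 in B16mhgp100 had 0.04, 0.06, 0 and 0 TPM with Aoah, against 13.4, 0, 0.09 and 0.19 TPM with Vector. Krt26 in B16F10 had 0 and 0 TPM with Aoah, against 0.04 and 1.86 TPM with Vector. Among the type II partners, Krt72 and Krt73 behaved alike. Krt72 in B16mhgp100 had 0.28, 0.52, 0 and 0 TPM with Aoah, against 40.5, 0.25, 0.23 and 0.43 TPM with Vector. Krt72 in B16F10 had 0 and 0 TPM with Aoah, against 0.17 and 7.99 TPM with Vector. The gap between the 2 high libraries was wider for Krt72 than for Krt73. Krt73 in B16mhgp100 had 0.05, 0.10, 0 and 0 TPM with Aoah, against 25.9, 0.11, 0.10 and 0.16 TPM with Vector. Krt73 in B16F10 had 0 and 0 TPM with Aoah, against 0.10 and 13.3 TPM with Vector. Krt74 stayed under 1 TPM throughout, at most 0.39 TPM in B16F10 Vector 2.

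Hair shaft keratins, the hard keratins of cortex and cuticle, were high in the same 2 libraries. All 15 in the table reached 1 TPM, and they summed to 226 TPM in B16mhgp100 Vector 1 and 126 TPM in B16F10 Vector 2, against at most 2.98 TPM elsewhere. Krt83 in B16mhgp100 had 0.57, 0.13, 0.13 and 0.33 TPM with Aoah, against 35.7, 0.26, 0.39 and 0.25 TPM with Vector. Krt83 in B16F10 had 0.22 and 0.23 TPM with Aoah, against 0.20 and 21.7 TPM with Vector. Krt83 was the highest shaft keratin in both. Krt33a in B16mhgp100 had 0.20, 0.14, 0.07 and 0 TPM with Aoah, against 31.1, 0.34, 0.41 and 0.14 TPM with Vector. Krt33a in B16F10 had 0 and 0 TPM with Aoah, against 0.23 and 15.96 TPM with Vector. Krt33a, Krt33b and Krt31 are very similar in sequence, so the split of reads among them is uncertain. Krt33b in B16mhgp100 had 0.14, 0.15, 0.15 and 0 TPM with Aoah, against 16.9, 0.08, 0.07 and 0.23 TPM with Vector. Krt33b in B16F10 had 0 and 0 TPM with Aoah, against 0.22 and 14.0 TPM with Vector. The 2 high libraries differed less in Krt33b than in Krt33a. Krt31 in B16mhgp100 had 0.14, 0.07, 0 and 0 TPM with Aoah, against 26.2, 0.18, 0.30 and 0 TPM with Vector. Krt31 in B16F10 had 0 and 0 TPM with Aoah, against 0.17 and 16.1 TPM with Vector. Krt81, Krt83 and Krt86 form a further set of very similar genes, with the same uncertainty. Krt81 in B16mhgp100 had 0.21, 0.18, 0.06 and 0 TPM with Aoah, against 27.2, 0.25, 0.23 and 0.19 TPM with Vector. Krt81 in B16F10 had 0 and 0 TPM with Aoah, against 0.13 and 11.7 TPM with Vector. No other library passed 0.25 TPM in Krt81. Krt86 in B16mhgp100 had 0, 0, 0.06 and 0 TPM with Aoah, against 22.9, 0, 0.07 and 0.12 TPM with Vector. Krt86 in B16F10 had 0 and 0 TPM with Aoah, against 0.18 and 5.59 TPM with Vector. Krt34 was likewise about 4 times as high in B16mhgp100 Vector 1 as in B16F10 Vector 2. Krt34 in B16mhgp100 had 0.07, 0.07, 0.15 and 0 TPM with Aoah, against 23.8, 0.18, 0.07 and 0.08 TPM with Vector. Krt34 in B16F10 had 0 and 0 TPM with Aoah, against 0.16 and 5.76 TPM with Vector. Krt35, a keratin of the hair matrix, was about equal in both. Krt35 in B16mhgp100 had 0.20, 0.13, 0 and 0 TPM with Aoah, against 16.05, 0, 0.13 and 0 TPM with Vector. Krt35 in B16F10 had 0 and 0 TPM with Aoah, against 0.13 and 16.1 TPM with Vector. The type II shaft keratin Krt87 kept a low level elsewhere. Krt87 in B16mhgp100 had 1.14, 0.68, 0.30 and 0.10 TPM with Aoah, against 15.2, 1.44, 0.49 and 1.18 TPM with Vector. Krt87 in B16F10 had 0.45 and 0.19 TPM with Aoah, against 0.89 and 12.2 TPM with Vector. The other 6 shaft keratins, Krt32, Krt36, Krt39, Krt40, Krt82 and Krt84, peaked between 1.18 and 3.56 TPM, each in 1 of these 2 libraries.

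Type I and type II sums were close in the hair classes. Their ratio was 0.90 for the inner sheath and 1.15 for the shaft in B16mhgp100 Vector 1, and 0.87 and 1.41 in B16F10 Vector 2, where the basal epidermal ratio was 0.81 (0.60 in B16mhgp100 Vector 1). The keratin-associated proteins, the matrix of the hair shaft, were looked at after the hair keratins had been seen. Of 54 Krtap symbols 47 reached 1 TPM, 44 of them highest in B16mhgp100 Vector 1 and 3 in B16F10 Vector 2. They summed to 759 TPM and 234 TPM in these libraries, against at most 8.51 TPM elsewhere. In the fixed hair follicle list, Tchh, which encodes trichohyalin of the inner sheath, had 184 TPM in B16mhgp100 Vector 1 and 30.1 TPM in B16F10 Vector 2, and S100a3, a calcium-binding protein gene of the hair cuticle, had 109 and 104 TPM. In the other 10 libraries Tchh stayed at or under 1.09 TPM and S100a3 at or under 1.66 TPM. Of the other listed follicle genes that reached 1 TPM, Padi3, Msx2, Dsg4, Hoxc13 and Foxn1 were also highest in B16mhgp100 Vector 1. Gata3, Sox9, Lgr5 and Lhx2 were not. Gata3 was highest in the library labelled Aoah 4, at 23.7 TPM. Sox9 was highest in the B16F10 Aoah libraries, at 14.1 and 11.8 TPM. Upper epidermal keratins were near 0 in both hair libraries: Krt10 had 0.62 TPM in B16mhgp100 Vector 1 and 0.58 TPM in B16F10 Vector 2, Krt1 had 0.05 and 0 TPM, and Krt77 was listed at 0 in both.

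**Figure D2:**
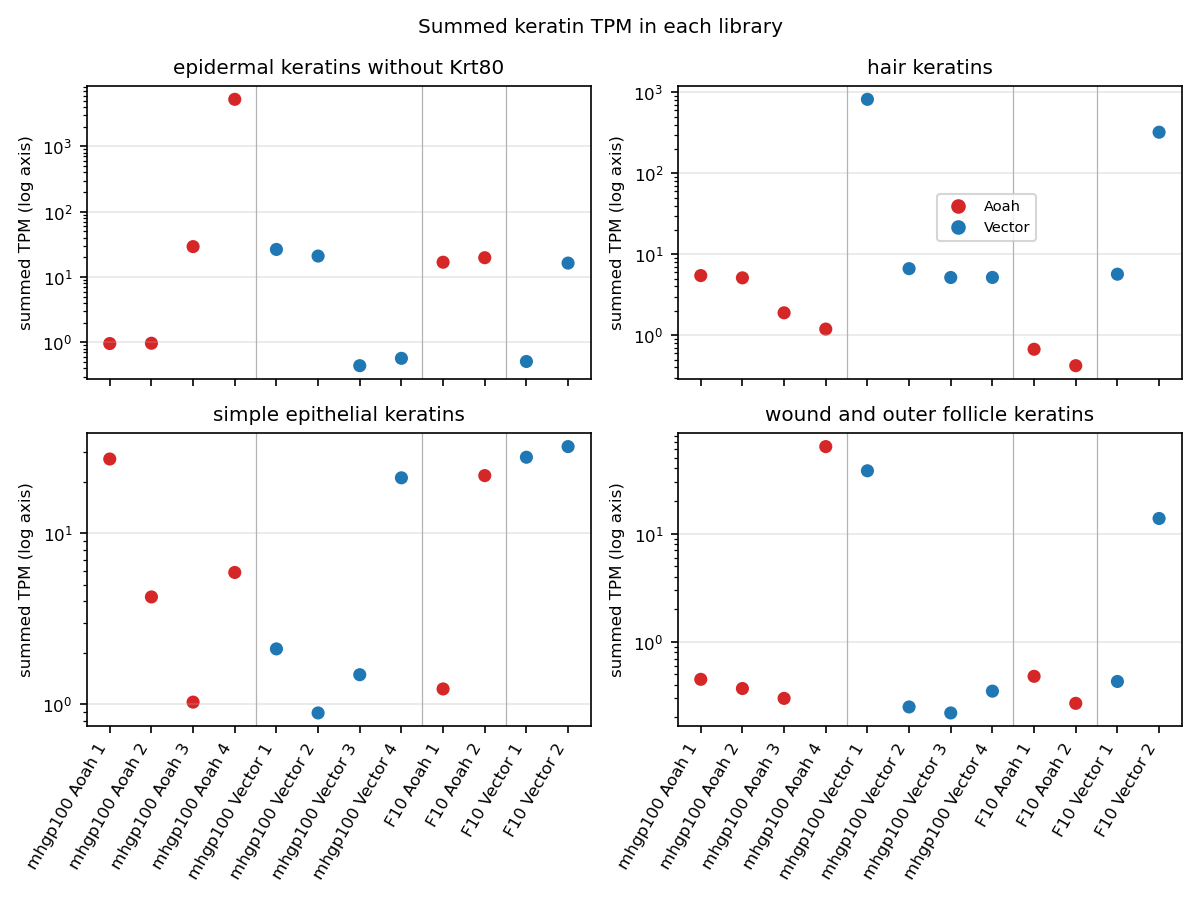
Summed TPM (log axis) of 4 keratin classes in each of the 12 libraries, with Aoah libraries in red and Vector libraries in blue and grey lines between groups. Epidermal keratins peak at 5245 TPM in mhgp100 Aoah 4, hair keratins at 820.5 TPM in mhgp100 Vector 1 and 322 TPM in F10 Vector 2, and the simple keratins reach 21.2 to 32.2 TPM in 5 libraries that include neither mhgp100 Aoah 4 nor mhgp100 Vector 1.

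Keratins of the outer follicle and of wounded skin did not share 1 pattern: Krt17 and Krt6a reached 1 TPM in all 3 libraries, and the other 4 that reached 1 TPM did so in 1 or 2 of them. Krt17, a type I keratin of skin appendages that is induced on wounding, had 0.37, 0.30, 0.08 and 51.7 TPM in B16mhgp100 Aoah libraries 1 to 4, against 23.5, 0.25, 0.15 and 0.16 TPM in Vector libraries 1 to 4. Krt17 in B16F10 had 0.48 and 0.22 TPM in Aoah libraries 1 and 2, against 0.37 and 8.94 TPM in Vector libraries 1 and 2. The library labelled Aoah 4 was 2.2-fold above B16mhgp100 Vector 1 in Krt17, a far smaller gap than in Krt10. Krt75, the type II keratin of the companion layer of the follicle, had 0.03, 0.07, 0.07 and 0.40 TPM in B16mhgp100 Aoah libraries 1 to 4, against 10.2, 0, 0.07 and 0.03 TPM in Vector libraries 1 to 4. Krt75 in B16F10 had 0 and 0 TPM in Aoah libraries 1 and 2, against 0.06 and 2.75 TPM in Vector libraries 1 and 2. Krt75 thus followed the hair keratins. Krt79, known from the upper follicle, had 4.25 TPM in the library labelled Aoah 4, against at most 0.59 TPM elsewhere. Krt16, a wound keratin, had 3.84 TPM there, against at most 0.91 TPM. Its partners Krt6a and Krt6b are near-identical, so their split is uncertain. Krt6a had 2.00 TPM in the library labelled Aoah 4, 2.86 TPM in B16mhgp100 Vector 1 and 1.14 TPM in B16F10 Vector 2, and Krt6b had 1.47 TPM in the library labelled Aoah 4 and at most 0.05 TPM elsewhere.

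Promoters of the highest keratins are shown because the genes of a class moved together across libraries. They come from RefSeq on GRCm38.p6, a different build from that of the expression values, and give the 100 bases before the transcription start, 5′ to 3′. Capitals mark matches, on either strand, to the TATA box letters TATANA, and overlapping matches are run together.
Krt10 (chr11:99389365-99389464, minus strand): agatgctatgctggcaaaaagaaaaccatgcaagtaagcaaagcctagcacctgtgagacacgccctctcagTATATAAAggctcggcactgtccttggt
Krt77 (chr15:101869706-101869805, minus strand): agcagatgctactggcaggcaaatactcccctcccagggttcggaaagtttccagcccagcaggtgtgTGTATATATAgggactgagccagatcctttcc
Krt71 (chr15:101743098-101743197, minus strand): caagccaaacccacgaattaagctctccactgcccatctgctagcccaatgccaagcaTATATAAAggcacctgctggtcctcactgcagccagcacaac
Krt5 (chr15:101712906-101713005, minus strand): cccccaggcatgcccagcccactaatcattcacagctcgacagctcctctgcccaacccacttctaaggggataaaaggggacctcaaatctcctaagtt
In Krt10, Krt77 and Krt71 the first match began 28, 32 and 42 bases before the start, and Krt5 had no match in this window. TATANA occurred in 19 of the 29 keratin promoters that could be used (65.5%), against 9.48% of 32851 promoters of the same length. By class, it occurred in 6 of 7 inner sheath, 7 of 9 shaft, 3 of 4 upper epidermal, 0 of 1 basal epidermal, 0 of 2 wound and outer follicle, 1 of 2 simple epithelial and 2 of 4 other keratin promoters. The AP-1 letters TGANTCA occurred in 0 of 29, against 2.73% of all promoters, and the AP-2 letters GCCNNNGGC in 2 of 29 (6.90%), against 6.78%. The genes lie in 2 clusters, 25 on chromosome 11 and 25 on chromosome 15 in the GENCODE annotation of GRCm38. Type I keratins other than Krt18 are on chromosome 11, and Krt18 and the type II keratins other than the pseudogene Krt8-ps are on chromosome 15.

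Low levels of the epidermal keratins in 4 other libraries kept the proportions of the library labelled Aoah 4. Over the 6 epidermal keratins with at least 100 TPM there (Krt10, Krt77, Krt14, Krt5, Krt15 and Krt1), the median level was 0.63% of that library's in B16mhgp100 Aoah 3 (range 0.378% to 0.786%). It was 0.397% in B16mhgp100 Vector 2 (0.326% to 0.745%), 0.329% in B16F10 Aoah 1 (0.251% to 0.435%) and 0.371% in B16F10 Aoah 2 (0.286% to 0.467%). The 4 libraries come from both arms and both models. In B16mhgp100 Aoah 1, Aoah 2, Vector 3 and Vector 4 and in B16F10 Vector 1 the median was at most 0.0208%.

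Cornified envelope genes, also of epidermis, and skeletal muscle genes had low shares in those 4 libraries too, over wider ranges. For 6 cornified envelope genes the medians were 0.613%, 0.748%, 0.481% and 0.474% in the order above. The highest of the 6 was at 4.6% in B16mhgp100 Aoah 3 and 4.72% in B16mhgp100 Vector 2, in both Lgals7, and the median in Vector 2 was above the 0.397% of the keratins. For 10 skeletal muscle genes the medians were 0.59%, 0.711%, 0.453% and 0.472%, with up to 2.30% for a single gene in B16mhgp100 Aoah 3. Cornified and muscle genes were also present in libraries where the epidermal keratins were not: in B16mhgp100 Aoah 2, muscle genes had a median of 2.47% and the epidermal keratins 0.0181%. For B16mhgp100 Vector 1 and B16F10 Vector 2 no single share described the 6 keratins, which ranged from 0% to 6.72% and from 0% to 3.63%.

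Hair keratins showed a low level of the same kind relative to B16mhgp100 Vector 1. Over the 12 hair keratins with at least 20 TPM there, the median was 0.5%, 0.418%, 0.206% and 0% of that library's level in B16mhgp100 Aoah 1 to 4, against 0.677%, 0.52% and 0.449% in Vector 2 to 4. In B16F10 it was 0% in both Aoah libraries, against 0.604% in Vector 1 and 34.5% in Vector 2. In the library labelled Aoah 4 and in both B16F10 Aoah libraries 11 of the 12 genes were listed at 0, and Krt83 was the other, at 0.33, 0.22 and 0.23 TPM. The libraries with low epidermal keratins and those with low hair keratins were thus different sets that overlapped in B16mhgp100 Aoah 3 and Vector 2. Whether these low levels came from skin in the pieces or from reads of another library was not tested.

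**Figure D3:**
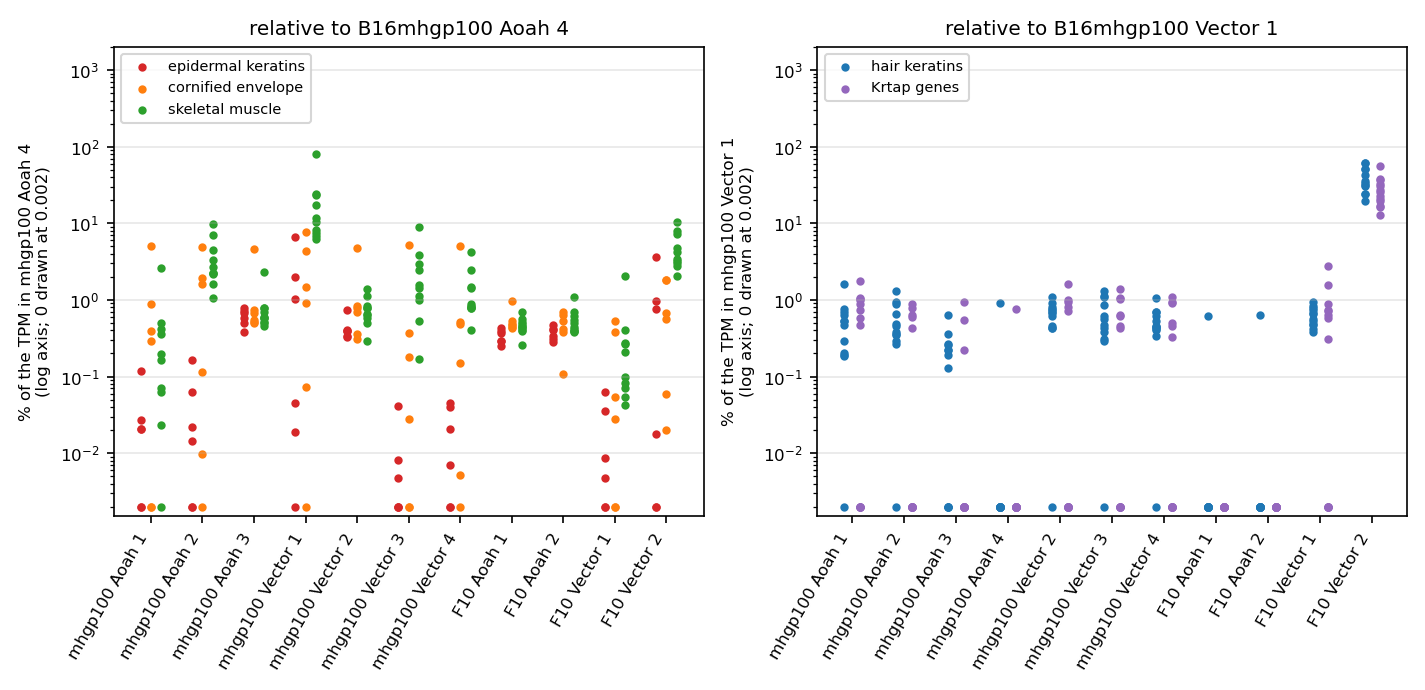
Level of single genes in each other library as a percentage of the level in B16mhgp100 Aoah 4 (left) or B16mhgp100 Vector 1 (right), on log axes with values of 0 drawn at 0.002. On the left the 6 epidermal keratins, 6 cornified and 10 muscle genes lie mostly (Lgals7 is higher in the mhgp100 libraries) between 0.2% and 1% in mhgp100 Aoah 3, mhgp100 Vector 2, F10 Aoah 1 and F10 Aoah 2; on the right 12 hair keratins and 13 Krtap genes reach 13.0% to 61.4% in F10 Vector 2 only.

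Simple epithelial keratins were distributed in yet another way. Krt8, the type II keratin of simple epithelia, had 11.3, 0.34, 0.48 and 0.28 TPM in B16mhgp100 Aoah libraries 1 to 4, against 0.45, 0.25, 0.23 and 9.53 TPM in Vector libraries 1 to 4. Krt8 in B16F10 had 0.42 and 9.64 TPM in Aoah libraries 1 and 2, against 13.0 and 15.6 TPM in Vector libraries 1 and 2. The 5 libraries above 9 TPM were B16mhgp100 Aoah 1 and Vector 4, B16F10 Aoah 2, and both B16F10 Vector libraries, and the other 7 stayed at or under 0.48 TPM. Krt20, a type I keratin of gut and bladder epithelium and of Merkel cells, had 5.68 to 9.02 TPM in the same 5 libraries and at most 0.89 TPM in the others. Krt18, the usual partner of Krt8, had 0.87 to 1.68 TPM in the 5 libraries and at most 0.45 TPM in the others. Krt19, a type I keratin of simple epithelia and follicle stem cells, had 7.70, 3.22, 0.32 and 5.25 TPM in B16mhgp100 Aoah libraries 1 to 4, against 0.72, 0.08, 0.37 and 4.23 TPM in Vector libraries 1 to 4. Krt19 in B16F10 had 0.40 and 5.18 TPM in Aoah libraries 1 and 2, against 4.62 and 7.29 TPM in Vector libraries 1 and 2. Krt19 was thus also present in the library labelled Aoah 4 and in B16mhgp100 Aoah 2. Krt7 stayed at or under 0.76 TPM. A pseudogene, Krt8-ps, stayed at or under 0.45 TPM, and reads could be shared between it and Krt8.

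Epithelial junction genes did not share 1 pattern. Cldn7, a claudin gene picked after its values were seen, had 5.29 to 8.54 TPM in the same 5 libraries and at most 0.37 TPM in the other 7. Cldn3, a further claudin gene, had 1.73 to 2.72 TPM in the 5 and at most 0.53 TPM in the other 7. The claudin gene Cldn1 differed, and was highest in the library labelled Aoah 4, at 4.78 TPM. Epcam, an epithelial surface gene, had 3.45 to 6.36 TPM in the 5, and 9.68 TPM in the library labelled Aoah 4 and at most 1.02 TPM in the other 6. The wider list of 14 general epithelial genes had 13 members that reached 1 TPM and summed to 81.6 TPM in the library labelled Aoah 4, against 4.90 to 38.9 TPM in the others. Rab25, Esrp1 and Cldn4 of that list were highest in the library labelled Aoah 4, at 25.8, 10.6 and 8.99 TPM. Cldn4 was next highest in B16mhgp100 Vector 1 at 5.50 TPM, and stood at 0.53 TPM in B16mhgp100 Vector 4 and 0.24 TPM in B16F10 Aoah 2, both among the 5. Cdh1, which encodes E-cadherin, had 8.57 TPM in the library labelled Aoah 4, against 1.04 to 3.66 TPM in the others. Of 7 listed Merkel cell genes 4 reached 1 TPM, Krt8, Krt18, Krt20 and Piezo2, whereas Atoh1, Isl1 and Sox2 did not. Piezo2 had 0.71 to 2.17 TPM in the 5 libraries and 0.57 to 1.90 TPM in the other 7. Among 5 mesothelial genes 0 reached 1 TPM. Which cells these keratins came from was not tested.

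**Figure D4:**
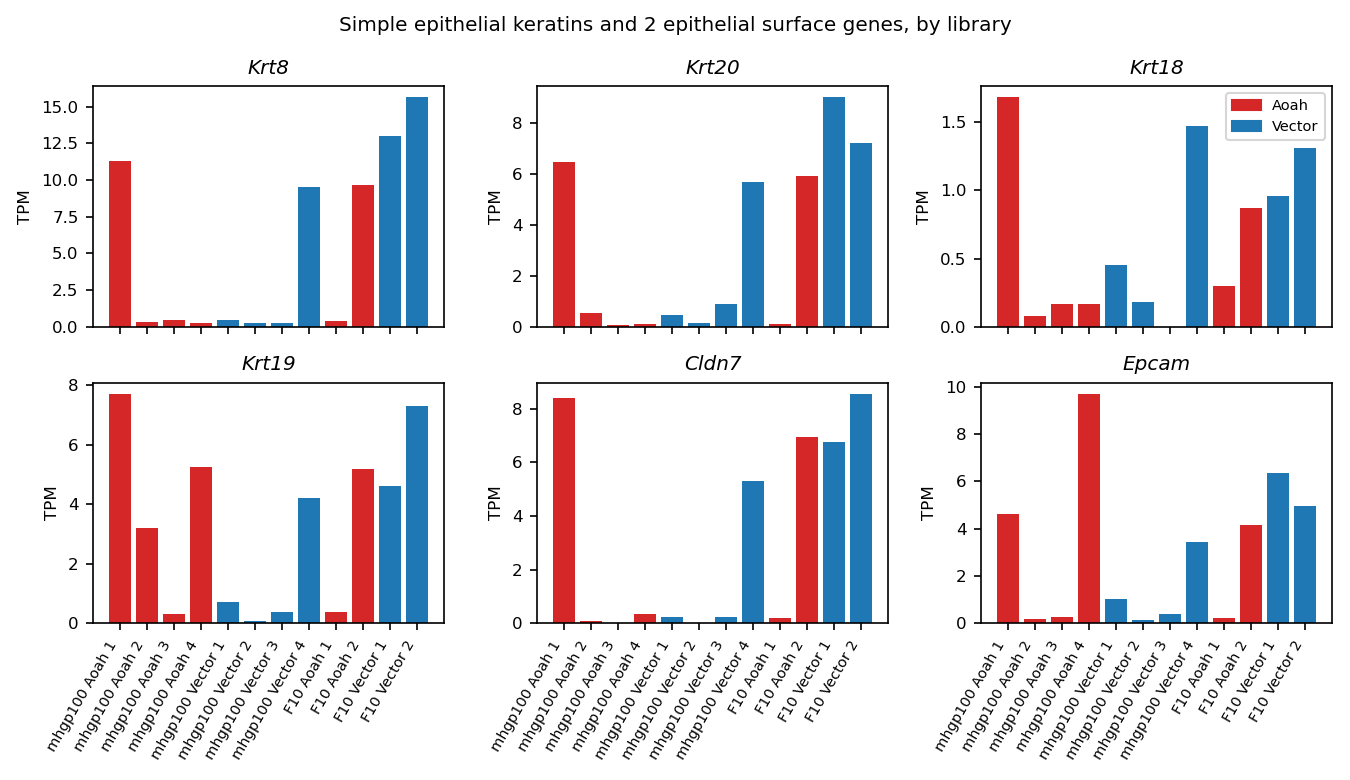
TPM of 4 simple epithelial keratins and of the epithelial genes Cldn7 and Epcam in each of the 12 libraries (bars from 0; Aoah red, Vector blue). Krt8, Krt20 and Cldn7 are high in mhgp100 Aoah 1, mhgp100 Vector 4, F10 Aoah 2, F10 Vector 1 and F10 Vector 2, a set that includes 1 hair library and leaves out mhgp100 Aoah 4, where Epcam is highest.

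Differences between Aoah and Vector were tested with limma on log2(TPM + 1) over all genes that passed a filter on low values, with Benjamini-Hochberg adjustment. Only 5 of 51 keratins passed the filter in B16mhgp100, at least 1 TPM in 4 libraries, and 0 of them had an adjusted p under 0.05. Of all 14228 genes, 0 did (0.0%). At an unadjusted p under 0.05 there were 0 keratins and 350 genes (2.46%). The log2 fold changes, Aoah over Vector, were 1.59 for Krt14 (SE 1.88, limma adjusted p = 0.71), 1.13 for Krt19 (SE 0.66, limma adjusted p = 0.694), 0.16 for Krt80 (SE 0.23, limma adjusted p = 0.744), -1.16 for Krt87 (SE 0.68, limma adjusted p = 0.694) and -2.34 for Krt71 (SE 1.39, limma adjusted p = 0.694). The median over all genes was -0.20, and -0.02 after median-of-ratios scaling, with which Krt80 was at 0.36 and Krt14 at 1.80. With array weights, which give less weight to libraries far from their group, Krt14 was at -0.14. Without the library labelled Aoah 4 and Vector 1, 2 keratins passed the filter, Krt71 and Krt80, and 0 were called. The groups overlapped in all 5 keratins, against 5.88% of all genes whose groups did not overlap.

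In B16F10 8 keratins passed the filter, at least 1 TPM in 2 of 4 libraries, and 1 of them, Krt10, had an adjusted p under 0.05. Krt10 entered the test through the Aoah libraries alone, the group in which it is high, so this p is given as a description of the 4 libraries and supports no difference. Krt10 was higher in Aoah than in Vector by 3.11 on the log2 scale (SE 0.30, limma adjusted p = 0.0384), with 9.49 and 13.4 TPM in Aoah, against 0.28 and 0.58 TPM in Vector. Of all 14533 genes 0.289% were called higher and 0.055% lower (0.344% in all), and 18.2% had an unadjusted p under 0.05, as 2 of the 8 keratins did. Both Aoah levels of Krt10 were 0.289% and 0.407% of the level in the library labelled Aoah 4. Krt77, which met the filter in the same way, was next at 1.90 (SE 0.26, limma adjusted p = 0.0603). It was at 1.92 without Vector 1 and at 1.87 without Vector 2. The call of Krt10 was lost with a pseudocount of 0.1 (limma adjusted p = 0.0657) and with no filter (limma adjusted p = 0.237), and over all alternatives its adjusted p ran between 3.39e-08 and 0.237. Krt10 did not pass the filter when either Aoah library was left out.

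The cornified envelope gene Lor had 6.27 and 5.12 TPM in B16F10 Aoah, against 0 and 0.27 TPM in Vector, and likewise entered the test through the Aoah libraries alone, so its difference of 2.57 (SE 0.28, limma adjusted p = 0.0461) is no support for that of Krt10. Krtdap had 2.88 (SE 0.43, limma adjusted p = 0.0707). The remaining tested keratins did not pass. Krt80 was at 0.34 (SE 0.35), Krt14 at 0.34 (SE 0.87), Krt19 at -1.21 (SE 0.72), Krt20 at -1.71 (SE 0.84), Krt8 at -1.97 (SE 0.92) and Krt71 at -3.75 (SE 1.62), with limma adjusted p between 0.303 and 0.874. Krt71, listed at 0 in both Aoah libraries, had 1.15 and 82.8 TPM in Vector, so its difference rested mostly on Vector 2. It entered the test through the Vector libraries alone, the group in which it is high, so its difference and p are a description only. Leaving out 1 library leaves an arm of 1 that is assumed to vary like the other, so only effect sizes are given. Krt71 was at -3.75 without Aoah 1 and at -3.75 without Aoah 2. Without Aoah 2, Krt8 was at -3.42, Krt20 at -3.03 and Krt19 at -2.29, against -0.52, -0.39 and -0.14 without Aoah 1. Krt71 without Aoah 1 met the filter through the Vector libraries alone, and without Aoah 2 so did Krt8, Krt20, Krt19 and Krt71. Without Vector 2 Krt14 was at 1.72, having met the filter through the Aoah libraries alone, and without Vector 1 it was at -1.04. The groups did not overlap in 5 of the 8 keratins, against 50.5% of all genes, and the smallest p that an exact permutation of 2 and 2 libraries allows is 0.333.

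**Figure D5:**
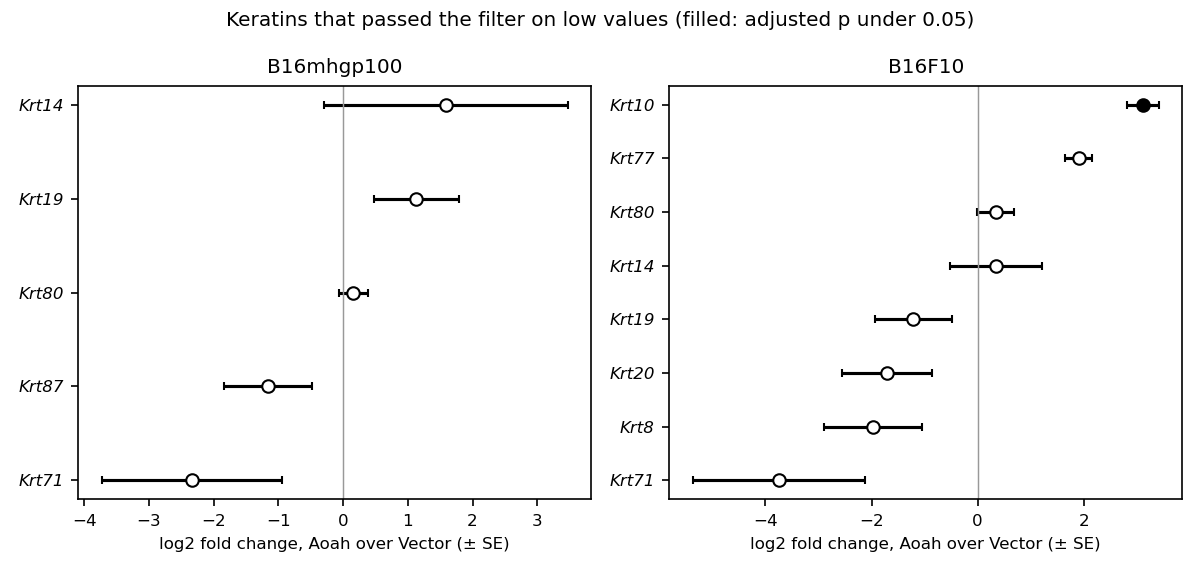
Log2 fold change on the log2(TPM + 1) scale, Aoah over Vector, with its standard error from limma, for the 5 keratins tested in B16mhgp100 (left) and the 8 tested in B16F10 (right). Krt10 in B16F10, the filled point at 3.11, is the 1 keratin with an adjusted p under 0.05, and passed the filter through the Aoah libraries alone. In B16F10 Krt77 passed it in the same way, and Krt71 through the Vector libraries alone.

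The Aoah effect was compared between the models as an interaction over all 12 libraries. Of 32 keratins tested 0 were called with limma at an adjusted p under 0.05, and 0 had an unadjusted p under 0.05. Of all 16556 genes 5 were called (0.0302%) and 936 had an unadjusted p under 0.05 (5.65%). For Krt10 the difference, B16mhgp100 minus B16F10, was -0.07 with an SE of 3.51. Without the library labelled Aoah 4, B16mhgp100 Vector 1 and B16F10 Vector 2, 10 keratins passed the filter and 0 were called.

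The authors' deposited tables list more keratins. They do not name the direction of their fold changes, and the signs for Krt10 match Aoah over Vector in the TPM values. For B16mhgp100 the authors' deposited table holds 50 keratins, of which 11 have an adjusted p and 0 are under 0.05. In the authors' deposited table Krt10 has a log2 fold change of 8.63 and Krt71 one of -6.61 in B16mhgp100, both with no p-value. For B16F10 the authors' deposited table holds 47 keratins, 26 with an adjusted p and 6 under 0.05. The share of all its genes under 0.05 was not computed, so the 6 are not read as particular to keratins. It lists Krt10 at 4.53 (adjusted p 3.04e-05 in the authors' deposited table) and Krt77 at 6.84 (adjusted p 0.000193 in the authors' deposited table) as higher in Aoah. Krt87 at -4.48, Krt17 at -3.86, Krt71 at -12.36 and Krt25 at -11.11 are lower in the authors' deposited table. Of these 4, Krt17, Krt25 and Krt87 did not pass the filter used here, and each was highest, within B16F10, in Vector 2.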

How the data were processed

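Bulk polyA RNA was measured in 12 tumour libraries, grouped by the sample titles. The authors deposited expression as log2(TPM + 1) values, which were turned back into TPM here; the TPM summed to between 992185 and 996590 per library. The authors used RSEM and DESeq2 with build mm39, per the submitters' processing notes, which give no versions. The authors also deposited a comparison table per model with a mean normalised count (a signal), log2 fold changes, a test score and p-values. RSEM shares reads between near-identical keratins, and the strand setting is not stated. A repertoire table was not used.

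TPM was tested as log2(TPM + 1), which understates the change of low genes, with limma 3.58.1 in R 4.3.3, with an intensity trend, 2-sided, and Benjamini-Hochberg adjustment over all genes kept (at least 1 TPM in as many libraries as the smaller group holds; threshold 0.05). The fit was checked on simulated data. Same-numbered libraries did not pair, so no block was used. Alternatives were the pseudocount, the filter, median-of-ratios scaling, array weights, a replicate block and leaving out each library.

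The keratins, the classes and the other gene lists were chosen with earlier results of these data known. Keratins that reach 10 TPM in a library are named with every value and those that reach 1 TPM by their highest value. For other lists the plan was to name at most the 4 genes with the highest TPM. The 10 other genes furthest above the rest in the library labelled Aoah 4 are named too. Further genes of the hair follicle, sebaceous, general epithelial, Merkel cell and fibroblast lists are named outside this plan. Promoters were planned for the 4 highest keratins. The RefSeq entry of Krt14 starts more than 100 bases from its annotated gene start, so Krt5 is shown in its place. Of 51 keratins, 32 matched the promoter table and 29 had a start within 100 bases. Protein sequences were not used here.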

Additional observations from a re-analysis of the deposited data

Results flagged for a closer look

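In groups of 4 libraries, 32 of 38 keratin groups tested held a library that stood apart. Its gap to its nearest neighbour took more of the group's range than Dixon's critical value allows. That value is set for about 1 group in 20 of normally distributed values, and whether TPM values meet this was not tested. The keratins were chosen with earlier results known, and the share of all genes under the same rule was not computed. The count of 32 is therefore a description only. The keratins are not independent of each other, since most share the same library. In the library labelled B16mhgp100 Aoah 4, 8 keratins stood apart from the other Aoah libraries: Krt10 at 3281 TPM, Krt77 at 834.9 TPM, Krt14 at 600.1 TPM, Krt5 at 239 TPM, Krt15 at 169 TPM, Krt1 at 111 TPM, Krt17 at 51.7 TPM and Krt23 at 35.0 TPM.

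In B16mhgp100 Vector 1, 20 keratins stood apart from the other Vector libraries. The inner sheath keratins were Krt71 at 246 TPM, Krt27 at 123 TPM, Krt25 at 108 TPM, Krt72 at 40.5 TPM, Krt28 at 37.6 TPM, Krt73 at 25.9 TPM and Krt26 at 13.5 TPM. The shaft keratins were Krt83 at 35.7 TPM, Krt33a at 31.1 TPM, Krt81 at 27.2 TPM, Krt31 at 26.3 TPM, Krt34 at 23.8 TPM, Krt86 at 23.0 TPM, Krt33b at 16.9 TPM, Krt35 at 16.1 TPM and Krt87 at 15.2 TPM. Krt17 at 23.5 TPM, Krt5 at 16.1 TPM, Krt75 at 10.2 TPM and Krt23 at 3.13 TPM made up the rest.

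In B16mhgp100 Vector 2, Krt10 at 13.2 TPM and Krt77 at 3.32 TPM stood apart from the other Vector libraries. Krt8 stood apart at 11.3 TPM in B16mhgp100 Aoah 1 and at 9.53 TPM in B16mhgp100 Vector 4.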

How the results depend on the processing

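In B16mhgp100 and in the difference between the models, 0 keratins were called under every alternative run, leaving out each library included. In B16F10 the count of 1 became 0 with a pseudocount of 0.1 and 0 with no filter. It also moved in fits that left out 1 library. The arm with 1 library is then assumed to vary like the other, so those counts are not given. With the replicate number as a block the count was 5. Same-numbered libraries correlated at -0.108 in B16F10 and between -0.289 and 0.017 in B16mhgp100, so the numbers are not taken as pairs. With crossed numbers, a block added after seeing the data, it was 3. Over all genes, the calls in B16F10 were 50, with 32 at the lower pseudocount and 0 with no filter. They were 131 with median-of-ratios scaling, 115 with array weights, and 768 and 904 with the blocks. The number also rose in every fit without 1 library. The cause was not tested. Directions reversed for Krt14 in B16mhgp100 with array weights (-0.14) and, without 1 library, for Krt14 in B16F10 (-1.04 to 1.72) and Krt80 in B16F10 (-0.08 to 0.76). In the library labelled Aoah 4, the fold of the basal sum over the next library was 71.6 with median-of-ratios scaling, which divides that library by 0.626, and 21.0 without the highest member; that of the upper sum was 180.0 and 41.3. The count of 8 keratins 4-fold above the rest was 10 with a pseudocount of 0.1, 9 with scaling and 12 at 2-fold, and the 299 genes became 544, 570 and 902. TPM keeps no depth, so values near 0 cannot be given a counting limit.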

Other observations

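Cell types of skin other than keratinocytes were less marked than the keratins. Of the 3 Langerhans cell genes 0 passed the 4-fold mark in the library labelled B16mhgp100 Aoah 4. Cd207, which encodes langerin, had 1.34 TPM there and at most 0.08 TPM in the other 11, Epcam had 9.68 TPM against 0.14 to 6.36 TPM, and Cd209a had 1.77 TPM, within the 0.16 to 4.99 TPM of the other 11. Of 9 sebaceous gland genes 5 reached 1 TPM and 0 stood 4-fold above the rest there. The list summed to 49.5 TPM in that library, against 106 to 208 TPM, mostly from Scd1 and Soat1, which many cells express. Awat1, a wax synthase gene of sebaceous glands, had 1.25 TPM there and was listed at 0 in the other 11. Fa2h, Far2 and Mc5r were also highest there, Far2 only narrowly, at 2.08 TPM against at most 1.99 TPM. Awat2, Elovl3, Scd1, Scd3 and Soat1 were each higher in another library. Awat2 had 0.36 TPM against at most 0.50 TPM, and Elovl3 0.31 TPM against at most 0.85 TPM.

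Of 8 fat cell genes 1 passed the 4-fold mark, and the list summed to 462 TPM in the library labelled B16mhgp100 Aoah 4, against 21.7 to 162 TPM in the others. The gene that passed was Retn, with 20.6 TPM there and at most 0.48 TPM in the others. Fabp4, a fatty acid binding protein gene, had 366 TPM there, against 17.0 to 134 TPM, and did not pass. The sum of the 7 fibroblast genes did not follow the keratins. It was 2159 TPM in B16mhgp100 Aoah 2, whose epidermal keratins were near 0, and 710.1 TPM in the library labelled Aoah 4. Col3a1, Col1a1, Col1a2, Lum and Pdgfra were highest in B16mhgp100 Aoah 2. Dcn and Thy1 were highest in the library labelled Aoah 4, at 303 and 120 TPM, against at most 183.5 and 69.1 TPM in the others. The 10 melanocyte genes summed to 8116 TPM in the library labelled Aoah 4, against 16483 to 31469 TPM in the other 11.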
